A study of Mus musculus with 9 samples.

Results

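All 6 tumors from mice given anti-PD-1 antibody were set against the 3 tumors from mice given PBS, so the comparison used all 9 tumors of the study and took its members from the treatment labels alone. Each tumor grew in the liver of a C57BL/6 mouse from Hepa1-6, a mouse hepatoma line. Antibody or PBS was injected intraperitoneally 5 times at intervals of 4 days, and each sample was the total RNA of 1 whole tumor freed of surrounding tissue. The antibody arm held 3 responsive tumors, which were the smallest treated ones, and 3 nonresponsive tumors, which were the largest, while tumors of intermediate response had been left out. The arm therefore joined the 2 ends of the range of treated tumor sizes and was not a random draw of treated mice.

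PD-1 is an inhibitory receptor on activated T cells, and its ligands PD-L1 and PD-L2 are displayed by tumor cells and myeloid cells. An antibody against PD-1 keeps the ligands from reaching the receptor, so that T cells already in the tumor can kill and release interferon-gamma. A tumor in the liver also holds macrophages, neutrophils, vessels and, at its edge, normal hepatocytes, all of which add RNA to a bulk sample. In such a sample, fewer cells of a type and less RNA per cell cannot be told apart.

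The values were FPKM, fragments scaled to transcript length and library size, and read depth was unknown. Gene entries that shared a row in any tumor were joined into 1 locus, and a locus of several genes was not divided among them. In all, 13185 loci reached an FPKM of 1 in 3 or more tumors and were tested on the log2(FPKM + 1) scale, which understates the change of low loci. Hepa1-6 and liver markers were found in every tumor: Alb lay between 173 and 5041 FPKM and Krt18 between 44.7 and 566 FPKM. PBS tumor 1 stood apart. Its correlation with the other tumors over the tested loci averaged 0.801, against 0.850 or more in each of the others, and it lay at one end of the first principal component, which held 53.9% of the variance, with responsive tumor 1 and nonresponsive tumor 1 at the other end. Skeletal muscle genes were high in nonresponsive tumor 3 and PBS tumor 1, with list means of 5.79 and 4.31 on the log2 scale against 2.56 or less elsewhere. Pancreatic acinar genes were high in nonresponsive tumor 2, at 7.495 against 5.43 or less. The part of these tissues in the results was not tested, and list medians below are therefore given with and without PBS tumor 1.

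Few loci separated the arms beyond the spread between tumors. In limma, fitted across all loci, 1 locus (0.00758% of those tested) had an adjusted p under 0.05, and the next smallest adjusted p was 0.151. An unadjusted p under 0.05 was found for 1469 loci (11.1%), of which 833 (6.32% of those tested) were higher with the antibody and 636 (4.82%) lower. The mean was higher in the antibody arm for 44.0% of loci, and the median log2 fold change over all loci was -0.07. Without PBS tumor 1, 266 loci (2.02%) had an unadjusted p under 0.05, 126 (0.956%) higher and 140 (1.06%) lower, and 203 loci had such a p both with and without it. In 131 loci (0.994%) all 6 antibody tumors lay above all 3 PBS tumors, and in 247 loci (1.87%) all 6 lay below. The count of loci also moved with the antibody tumors: it was 3186 without nonresponsive tumor 3, 736 without responsive tumor 1, 747 without responsive tumor 3 and 778 without nonresponsive tumor 1.

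**Figure D1:**
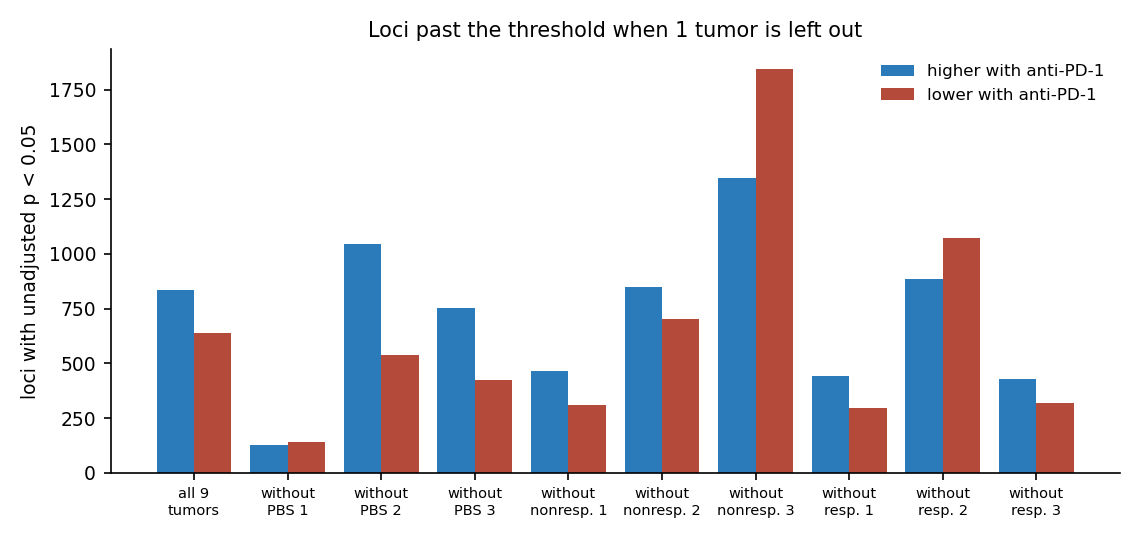
Number of loci with an unadjusted p under 0.05 in limma (vertical axis) with all 9 tumors and with each tumor left out in turn (horizontal axis), in blue for loci higher with anti-PD-1 and in red for loci lower. The bars fall to 126 and 140 without PBS tumor 1 and reach 1344 and 1842 without nonresponsive tumor 3.

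Nectin2 was the locus that passed the adjusted threshold. It encodes an adhesion molecule of the nectin family that binds the T cell and NK cell receptors TIGIT and CD226. It was listed at 0 FPKM in all 3 PBS tumors and at 28.6 FPKM (lowest), 35.5 FPKM (median) and 40.0 FPKM (highest) in the 6 antibody tumors. The arms did not overlap, and the adjusted p in limma was 6.3e-07. An exact permutation test of the difference in means, two-sided over the 84 ways to choose 3 of 9 tumors, gave p = 0.0238, the smallest it can give. The 3 zeros were marked as completed estimates, not failed ones, but a listed 0 may still not mean absent RNA. In 274 loci (2.08% of those tested) at least 1 tumor was listed at 0 while another stood at 20 FPKM or more, among them genes that cells in general use. Mrpl52, a mitochondrial ribosomal protein, was listed at 0 in 1 nonresponsive tumor and at 267 to 386 FPKM in the other 8 tumors. At the Nectin2 locus, entries without a gene name overlapped the gene in PBS tumor 1, with 0.976 FPKM, and in PBS tumor 2, with 4.13 FPKM, and in no other tumor. Whether PBS tumors lacked Nectin2 RNA was therefore not tested by these values. No fold change is given for it.

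Receptors and partners of Nectin2 were measured in the same tumors. Nectin3, Pvr, Cd226 and Cd96, like Mrpl52 above and Serpinc1 and Plk1 below, were chosen after their values were seen. Nectin3, which pairs with Nectin2 across cell contacts, stood at 3.34, 3.81 and 3.72 FPKM in the PBS tumors and at 5.04 (lowest), 6.33 (median) and 8.14 FPKM (highest) in the antibody tumors, a log2 difference of 0.68 ± 0.17 (SE) with no overlap. Pvr, the other main ligand of TIGIT, was 44.5, 36.5 and 36.6 FPKM with PBS and 6.03, 19.5 and 41.6 FPKM (lowest, median, highest) with antibody, and the arms overlapped. Cd226 and Cd96 had log2 differences of -0.22 ± 0.28 and 0.19 ± 0.25. The Tigit locus is shared with 2 gene models and its value cannot be assigned to Tigit.

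Loci that held whichever tumor was left out came next. Of the 13185 loci tested, 135 kept an unadjusted p under 0.05 with the same direction in all 9 leave-one-out fits, 73 higher and 62 lower. The fits shared most of their tumors and were not independent tests. Of the 135 loci, 67 were above 0 in every tumor and did not overlap. Of these, 15 with small p were named after their values were seen: 7 were higher and 8 lower with the antibody. Their adjusted p in limma was 0.151 for Imp4, 0.301 for Cox15 and 0.396 for the others. The exact permutation p was 0.0238 for each, the smallest possible. It was fixed by the choice of loci without overlap and adds no evidence.

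Imp4, a subunit of the complex that processes ribosomal RNA precursors, had the smallest p of them. It was 36.2, 24.4 and 40.1 FPKM in the PBS tumors and 6.41 (lowest), 9.04 (median) and 12.1 FPKM (highest) in the antibody tumors. All 6 antibody tumors lay below all 3 PBS tumors, and the log2 difference was -1.79 ± 0.23 (SE), or -1.72 without PBS tumor 1. Cox15, which makes heme A for cytochrome c oxidase, was 14.1, 15.4 and 12.7 FPKM with PBS and 5.79 to 7.61 FPKM with antibody, a log2 difference of -0.92 ± 0.13. Ntmt1, an enzyme that methylates protein N-termini, was 20.5, 18.98 and 18.2 FPKM with PBS and 9.97 to 14.6 FPKM with antibody. Srsf3, a splicing factor, was 142, 193 and 205 FPKM with PBS and 70.2 to 129 FPKM with antibody. Klf10, a transcription factor induced by TGF-beta, had a log2 difference of -0.62 ± 0.16. The other lower loci were Zfp968-ps, Mmgt2 and the locus of Zfyve9 and Gm17354, with log2 differences of -1.16, -0.91 and -1.01.

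Among the higher ones, Czib, a zinc-binding protein, was 16, 16.7 and 17.7 FPKM with PBS and 26.4 (lowest), 31.6 (median) and 37.5 FPKM (highest) with antibody, a log2 difference of 0.85 ± 0.14. Hmbox1, a homeobox protein that binds telomeric DNA, varied little among PBS tumors, at 5.59, 5.43 and 5.54 FPKM, and was 8.30 to 11.8 FPKM with antibody. Acat1, the mitochondrial thiolase of ketone body and isoleucine metabolism, was 13.8, 18.4 and 35.1 FPKM with PBS and 40.0 to 56.7 FPKM with antibody. Plekhb1, Necab1 and the locus of Cluap1, Naa60 and Gm20695 had log2 differences of 1.07, 1.04 and 0.71.

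**Figure D2:**
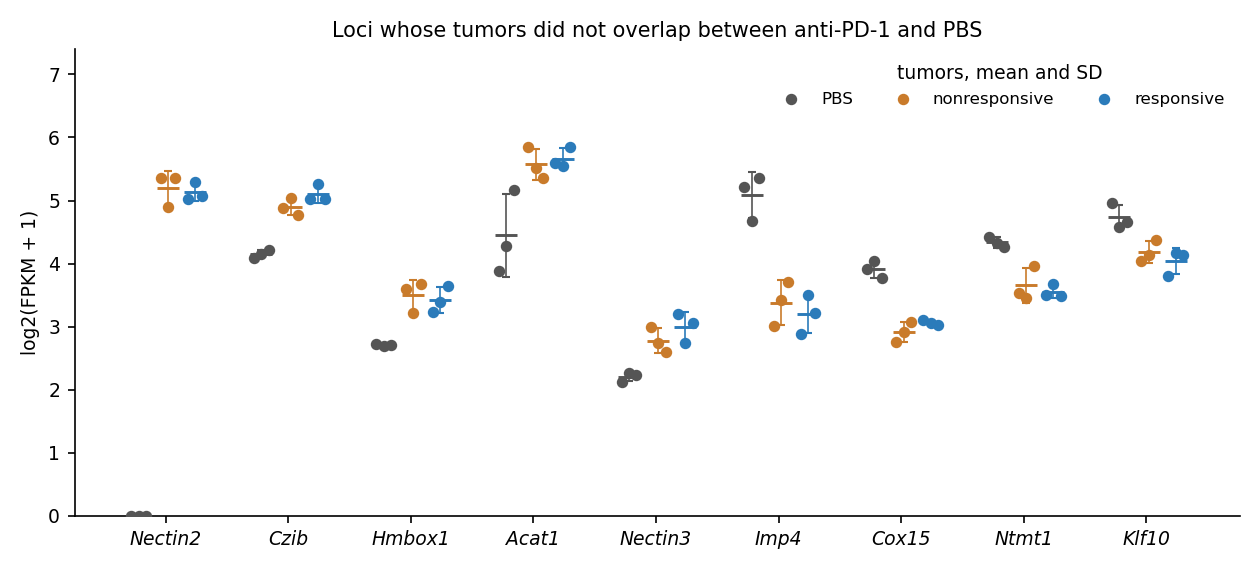
Level of 9 loci as log2(FPKM + 1) (vertical axis) in each PBS (dark grey), nonresponsive (orange) and responsive (blue) tumor, with the mean (short line) and SD (bar) of each group of 3. Nectin2 is listed at 0 in the 3 PBS tumors. In each locus all 6 antibody tumors lie on one side of the 3 PBS tumors.

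The largest differences without overlap, among loci with an unadjusted p under 0.05 and a value above 0 in every tumor, were taken in each direction. The 10 increases were Uox, Upb1, the Serpina3 locus, Igf1, Ddc, the locus of Slc22a28, Slc22a29 and Slc22a30, Ptn, Hal, Tcea3 and Entpd8. Uox, the urate oxidase of the liver, was 8.21, 12.1 and 26.6 FPKM with PBS and 29.1 (lowest), 70.5 (median) and 169 FPKM (highest) with antibody, a log2 difference of 2.12 ± 0.57, or 1.77 without PBS tumor 1. Igf1, the growth factor that hepatocytes secrete, was 4.29, 8.93 and 7.69 FPKM with PBS and 9.13, 25.7 and 75.5 FPKM (lowest, median, highest) with antibody. The lowest antibody tumor thus lay close to the highest PBS tumor in both genes. Upb1 and Hal, enzymes of pyrimidine and histidine breakdown, had log2 differences of 1.98 ± 0.62 and 1.53 ± 0.50. Ptn, a heparin-binding growth factor, was 1.08, 1.44 and 1.36 FPKM with PBS and 1.52, 6.84 and 30.0 FPKM (lowest, median, highest) with antibody. Of the 10, 4 kept an unadjusted p under 0.05 without PBS tumor 1, namely Uox, Igf1, Tcea3 and Entpd8. Reads of the near-identical Serpina3 and Slc22a genes could be divided among them in ways the files do not show.

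The 10 decreases were Imp4, Gm42959, the locus of Epp13 and Zfp667, Ralgapa2, Eif3f, Gm43520, Mob3b, Gm37758, Slc38a6 and Sbspon. Eif3f, a subunit of a translation initiation factor, was 565, 278 and 312 FPKM with PBS and 85.8 (lowest), 153 (median) and 220 FPKM (highest) with antibody, a log2 difference of -1.33 ± 0.35, or -1.01 without PBS tumor 1. Slc38a6, of a family of amino acid transporters, was 109, 74.7 and 71.2 FPKM with PBS and 17.2, 39.6 and 65.3 FPKM (lowest, median, highest) with antibody. Ralgapa2, a subunit of a GTPase-activating complex for Ral, was 25.7, 13.5 and 14.7 FPKM with PBS, with a highest antibody value of 13.1 FPKM. Mob3b, of the MOB family of kinase cofactors, had a log2 difference of -1.29 ± 0.34, and Sbspon, a matrix protein, of -1.23 ± 0.32. Gm42959, Gm43520 and Gm37758 are predicted gene models without an established role. The unadjusted p stayed under 0.05 in every leave-one-out fit for 8 of the 10, and not for Ralgapa2 and Slc38a6, which lost it without PBS tumor 1.

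Hepatocyte genes made up the clearest group. All 26 tested loci of the hepatocyte plasma protein list were higher with the antibody and had an unadjusted p under 0.05, where 6.32% of all loci did, with a median log2 fold change of 2.101. Alb, the albumin gene, was 173, 835 and 1259 FPKM with PBS and 885 (lowest), 2627 (median) and 5041 FPKM (highest) with antibody. Fgb, the fibrinogen beta chain, was 17.9, 107 and 302 FPKM with PBS and 186, 545 and 1145 FPKM (lowest, median, highest) with antibody. Ahsg, the secreted protein fetuin-A, had a log2 difference of 2.30 ± 0.81, and Hp, haptoglobin, of 1.88 ± 0.81. PBS tumor 1 was the lowest of the 9 tumors in these 4 genes, and PBS tumor 3 lay within the antibody range in each. Serpinc1, antithrombin, was listed at 0 in PBS tumor 1 and lay between 88.7 and 752 FPKM in the other 8 tumors. Of the 26 loci, 1 did not overlap, the Serpina3 locus, where 0.994% of all loci lay wholly above the PBS tumors. Without PBS tumor 1 all 26 were still higher, the median was 1.02, and 1 of 26 had an unadjusted p under 0.05, where 0.956% of all loci did. The list mean was 4.76, 7.65 and 8.30 on the log2 scale in the PBS tumors, 7.72 to 9.38 in the nonresponsive tumors and 9.13 to 10.2 in the responsive tumors, so that all 3 responsive tumors lay above all 3 PBS tumors and the nonresponsive tumors did not.

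Other liver functions were higher as well. Over all loci, 6.32% were higher with an unadjusted p under 0.05, and 0.956% were without PBS tumor 1. Of the cytochrome P450 and conjugation enzymes, which clear drugs and bile acids, 25 of 25 were higher and 18 had an unadjusted p under 0.05, with a median of 1.98, or 1.00 and 0 of 25 without PBS tumor 1. Cyp2f2 was 0.376, 2.48 and 3.99 FPKM with PBS and 2.61, 15.1 and 28.03 FPKM (lowest, median, highest) with antibody, and Ugt2b1, a glucuronosyltransferase, was 1.17, 10.2 and 14.1 FPKM and then 11.7, 32.9 and 87.7 FPKM. Of the urea cycle and amino acid catabolism list, 23 of 23 were higher and 17 had an unadjusted p under 0.05, with a median of 1.65, or 1.07 and 0 of 23 without PBS tumor 1. Otc, a urea cycle enzyme of the mitochondria, had a log2 difference of 2.36 ± 0.73, and Tat, tyrosine aminotransferase, of 2.02 ± 0.62, whereas Arg1, which myeloid cells also make, had 0.62 ± 0.63. The complement list had 20 of 21 higher and 14 with an unadjusted p under 0.05, with a median of 1.31, or 0.74 and 0 of 21 without PBS tumor 1. C8a, C8b and C9, which form the membrane attack complex, had log2 differences of 2.1, 2.11 and 2.201, and C3 of 1.53 ± 0.61. Acute phase proteins had 15 of 18 higher and 9 with an unadjusted p under 0.05, with a median of 1.82, or 0.74 and 0 of 18 without PBS tumor 1. Of the PPAR-alpha and fatty acid oxidation list 7 of 18 had an unadjusted p under 0.05 in the upward direction, and of the hepatocyte transcription factors 5 of 14, with medians of 0.64 and 0.89, or 0.48 and 0.55 without PBS tumor 1, when 0 of 18 and 0 of 14 had such a p. Cebpa, which drives hepatocyte genes, was 17.3, 31.9 and 46.7 FPKM with PBS and 32.5, 61.4 and 123 FPKM (lowest, median, highest) with antibody. The exact permutation p of the loci named in this paragraph ranged upward from 0.0476, and the arms overlapped in each.

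**Figure D3:**
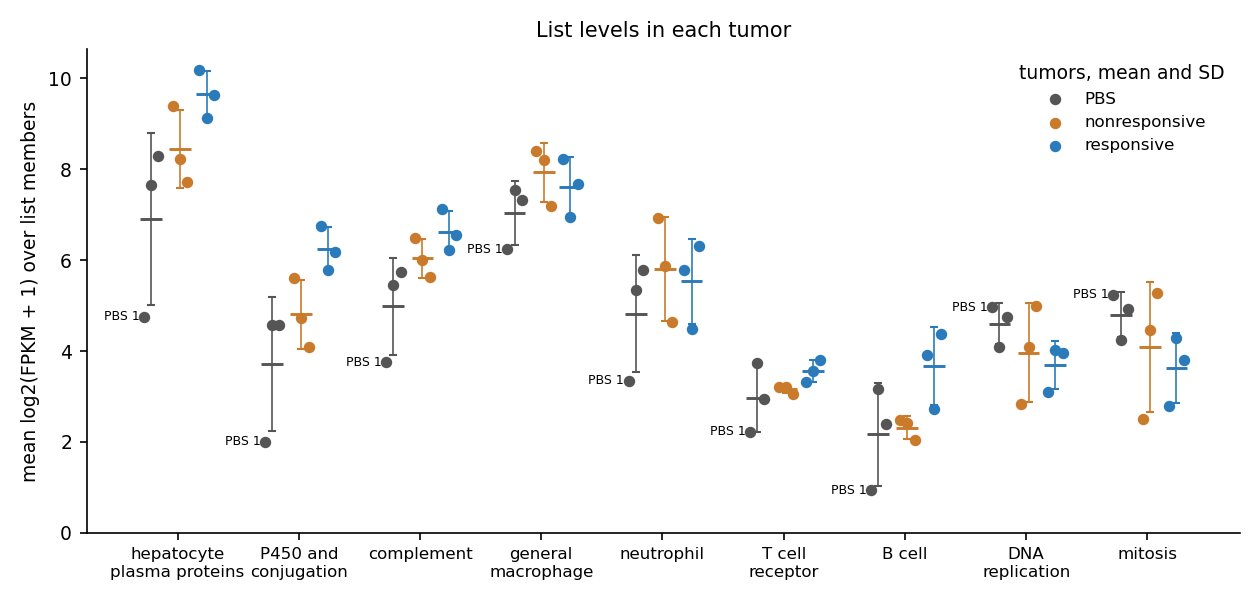
Mean log2(FPKM + 1) over the tested members of 9 gene lists (vertical axis) in each PBS (dark grey), nonresponsive (orange) and responsive (blue) tumor, with the mean (short line) and SD (bar) of each group of 3. PBS tumor 1, marked by name, is the lowest tumor in the liver, macrophage, neutrophil, T cell and B cell lists, with 4.76 for hepatocyte plasma proteins.

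Promoters of 2 hepatocyte genes are shown because hepatocyte loci were higher together, taken from RefSeq on GRCm38.p6 from 250 bases before to 50 bases after the annotated start, 5′ to 3′ on the gene's strand. Capitals mark matches to TTGCNNAA, a simple form of the C/EBP site, searched on both strands. This motif was found in 13 of 26 promoters of the hepatocyte plasma protein list (50%) and in 10.8% of all 32851 promoters of that length. The Alb promoter is chr5:90460620-90460919 (plus strand) and the Fgb promoter chr3:83049814-83050113 (minus strand).
Alb: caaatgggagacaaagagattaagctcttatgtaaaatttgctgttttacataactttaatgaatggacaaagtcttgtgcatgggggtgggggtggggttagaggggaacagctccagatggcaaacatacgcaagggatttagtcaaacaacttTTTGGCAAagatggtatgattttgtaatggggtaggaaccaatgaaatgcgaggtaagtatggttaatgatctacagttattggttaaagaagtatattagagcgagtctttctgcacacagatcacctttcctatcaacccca
Fgb: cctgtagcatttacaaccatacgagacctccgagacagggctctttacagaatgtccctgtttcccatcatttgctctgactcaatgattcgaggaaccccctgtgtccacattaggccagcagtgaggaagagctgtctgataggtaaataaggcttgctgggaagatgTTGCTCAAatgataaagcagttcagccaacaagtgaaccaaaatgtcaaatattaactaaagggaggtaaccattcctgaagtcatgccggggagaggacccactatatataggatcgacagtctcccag
A match is a description of the letters and was not tested as a binding site.

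Macrophage genes were higher on average, most of them without passing a test. All 17 tested loci of the general macrophage list had a higher mean with the antibody, where 44.0% of all loci did. Of the 17, 2 had an unadjusted p under 0.05, where 6.32% of all loci were higher with one. C1qa, a complement component made by tissue macrophages, was 228, 375 and 294 FPKM with PBS and 402 (lowest), 423 (median) and 524 FPKM (highest) with antibody. The arms did not overlap for C1qa, where 0.994% of all loci lay wholly above the PBS tumors. The log2 difference was 0.61 ± 0.20 and the adjusted p in limma was 0.396. The exact permutation p was 0.0238, the smallest possible, which follows from the lack of overlap. The C1qb and C1qc locus was 341, 638 and 522 FPKM with PBS and 578, 794 and 972 FPKM (lowest, median, highest) with antibody, with some overlap. Adgre1, the F4/80 antigen, was 15.2, 37.0 and 30.2 FPKM with PBS and 21.4, 53.0 and 95.8 FPKM (lowest, median, highest) with antibody, an exact permutation p of 0.143. The list median was 0.72, or 0.35 without PBS tumor 1. In that fit no member had an unadjusted p under 0.05, where 0.956% of all loci were higher with one.

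Genes of liver-resident Kupffer and sinusoidal endothelial cells had a larger median, 1.15, or 0.59 without PBS tumor 1, and 8 of 16 had an unadjusted p under 0.05, all higher, where 6.32% of all loci did. None of the 16 had one without PBS tumor 1, when 0.956% of all loci were higher with one. Cd5l, a protein secreted by Kupffer cells, was 1.76, 24.4 and 45.2 FPKM with PBS and 34.7, 67.4 and 113 FPKM (lowest, median, highest) with antibody. Clec4f, a Kupffer cell lectin, was 1.14, 13.4 and 37.2 FPKM with PBS and 19.4, 47.8 and 77.0 FPKM with antibody. The arms overlapped in both, and PBS tumor 1 was again the lowest. Folr2 was listed at 0 in the 3 PBS tumors, in nonresponsive tumor 3 and in responsive tumor 2, and at 30.0 to 49.0 FPKM in the other 4.

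M2-like macrophage genes had a median of 0.34, or 0.20 without PBS tumor 1 and 0.097 without responsive tumor 1. Of these genes, 5 of 21 had an unadjusted p under 0.05, all higher, where 6.32% of all loci did. None of the 21 had one without PBS tumor 1, when 0.956% of all loci were higher with one. Of the 5, 1 was Folr2 with its listed zeros. Among the others Stab1, a scavenger receptor shared with sinusoidal endothelium, was 7.83, 16.04 and 10.2 FPKM with PBS and 13.9, 26.9 and 43.9 FPKM (lowest, median, highest) with antibody. Cd163, the haemoglobin scavenger receptor, had a log2 difference of 0.90 ± 0.33, and Chil3 of 1.54 ± 0.60. Mrc1, which encodes CD206, had 0.46 ± 0.38. The Apoe and Tomm40 locus, at the highest level of the list, had 0.65 ± 0.39. M1-like macrophage genes had a median of 0.51, or -0.21 without PBS tumor 1. Cd80 and Cd86, the costimulatory ligands, had log2 differences of 1.04 ± 0.78 and 0.47 ± 0.35, Tnf of 0.52 ± 0.80 and Nos2 of 0.76 ± 0.83. Without PBS tumor 1 these differences were -0.13, 0.10, -0.38 and -0.27. Of the Fc gamma receptor and phagocytosis list 4 of 21 had an unadjusted p under 0.05, all higher, where 6.32% of all loci did. Without PBS tumor 1, 1 of 21 was higher with such a p, where 0.956% of all loci were. The list median was 0.60, or 0.26 without PBS tumor 1. Gas6, a bridging ligand for the receptors that take up dying cells, was 15.8, 37.1 and 28.3 FPKM with PBS and 36.9, 87.4 and 105 FPKM (lowest, median, highest) with antibody, a log2 difference of 1.47 ± 0.40. Its unadjusted p stayed under 0.05 in every leave-one-out fit, and 1 antibody tumor fell just below the highest PBS tumor.

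Other leukocyte lists depended on PBS tumor 1. All 16 neutrophil loci were higher, 4 with an unadjusted p under 0.05 where 6.32% of all loci had one, and the median was 0.56. Without PBS tumor 1, 7 of 16 were higher and the median was -0.11. In that fit 0 of 16 had such a p, where 0.956% of all loci were higher with one. The 4 were genes of granule proteins made by immature neutrophils, Mpo, Elane, Camp and Ngp. Camp was 0.207, 7.15 and 21.3 FPKM with PBS and 12.5, 18.9 and 65.1 FPKM (lowest, median, highest) with antibody. S100a9, a calcium-binding protein of mature neutrophils, was 83.8, 1160 and 1140 FPKM with PBS and 209, 1177 and 2760 FPKM with antibody, with a log2 difference of 0.81 ± 1.08. Of the B cell list 16 of 16 loci were higher, and none had an unadjusted p under 0.05, where 11.1% of all loci did. The list median was 0.91, or 0.30 without PBS tumor 1 and -0.54 with the mean of hepatocyte genes as a covariate. Immunoglobulin constant and plasma cell genes went from 1.11 to -0.07. MHC class II genes had 10 of 10 higher with a median of 0.65, or 0.26. Cd74, the invariant chain, with Mir5107 was 1385, 2855 and 1875 FPKM with PBS and 2065, 2618 and 3222 FPKM (lowest, median, highest) with antibody.

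**Figure D4:**
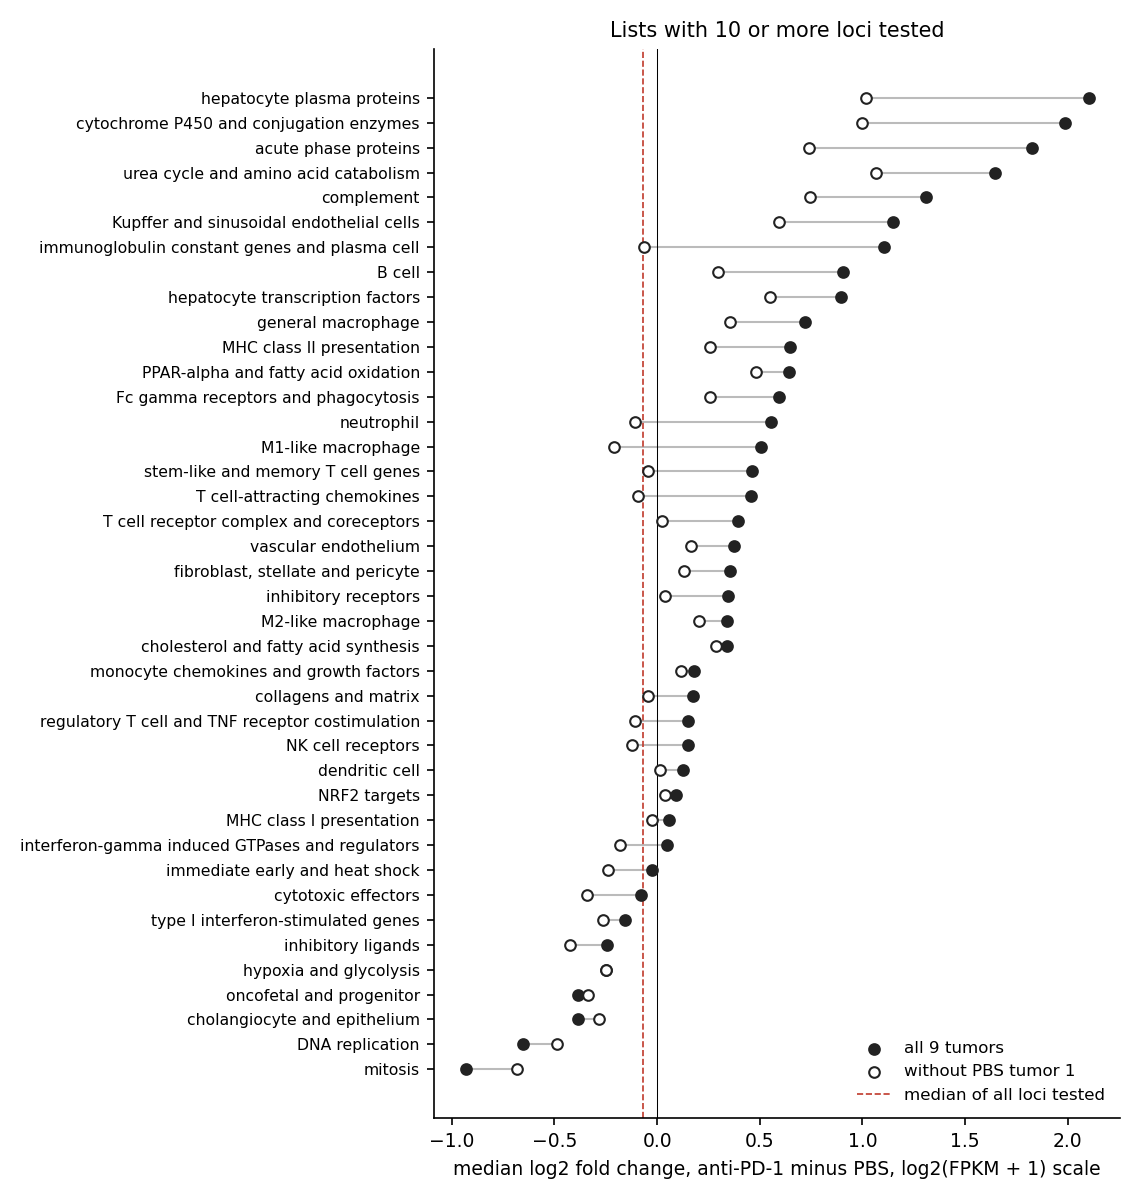
Median log2 fold change, anti-PD-1 minus PBS (horizontal axis), of the 40 gene lists with 10 or more tested loci (vertical axis), with all 9 tumors (filled) and without PBS tumor 1 (open); the dashed line is the median of all loci, -0.07. Liver lists lie at the top and mitosis, at -0.93, at the bottom, and 10 lists change sign between the 2 points.

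T cell and PD-1 axis genes did not separate the arms. Of the T cell receptor and coreceptor list 17 of 19 loci were higher, where 44.0% of all loci were. None of the 19 had an unadjusted p under 0.05, where 11.1% of all loci did. The list median was 0.39, or 0.02 without PBS tumor 1. Pdcd1, the antibody's target, was 1.44, 8.65 and 3.18 FPKM with PBS and 3.75 (lowest), 6.10 (median) and 8.18 FPKM (highest) with antibody. The antibody tumors lay inside the PBS range, the log2 difference was 0.58 ± 0.40, and the exact permutation p was 0.286. The locus of Cd274, which encodes PD-L1, with Ric1 had 0.28 ± 0.41, or -0.23 without PBS tumor 1. Pdcd1lg2, which encodes PD-L2, was 25.3, 22.4 and 33.3 FPKM with PBS and ranged from a listed 0 to 37.6 FPKM with antibody. Cd8a with Gm44174 was 5.80, 24.4 and 5.96 FPKM with PBS and 2.46, 6.71 and 22.8 FPKM (lowest, median, highest) with antibody. Cd4 was 2.22, 13.6 and 6.04 FPKM and then 7.79, 11.2 and 16.8 FPKM, an exact permutation p of 0.143. The arms overlapped in each of these loci.

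Effector genes were as variable. Gzmb, a granule protease of killer cells, was 14.1, 44.8 and 26.2 FPKM with PBS and 6.65, 26.7 and 40.7 FPKM (lowest, median, highest) with antibody. The Ifng locus had a log2 difference of 0.37 ± 0.43, and Cxcl9, a chemokine induced by interferon-gamma, of 0.53 ± 0.50. Tcf7, which encodes TCF-1 of stem-like T cells, was 158, 80.7 and 136 FPKM with PBS and 7.396, 62.1 and 126 FPKM (lowest, median, highest) with antibody. In the PBS tumors its FPKM was above those of the T cell genes Cd3e and Cd3g, and the cells it came from cannot be told apart here. The cytotoxic effector list had a median of -0.08, the stem-like and memory T cell list 0.46 and the inhibitory receptor list 0.34, which became -0.34, -0.04 and 0.04 without PBS tumor 1. None of their 13, 13 and 10 loci had an unadjusted p under 0.05, where 11.1% of all loci did. In all, none of the 22 PD-1 axis, T cell, macrophage and tumor genes named in the selection rule had an unadjusted p under 0.05. Over all loci 11.1% had one. All 22 overlapped, but only 0.994% of all loci lay wholly above the PBS tumors and 1.87% wholly below. The exact permutation p of the 22 lay between 0.119 and 0.881.

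**Figure D5:**
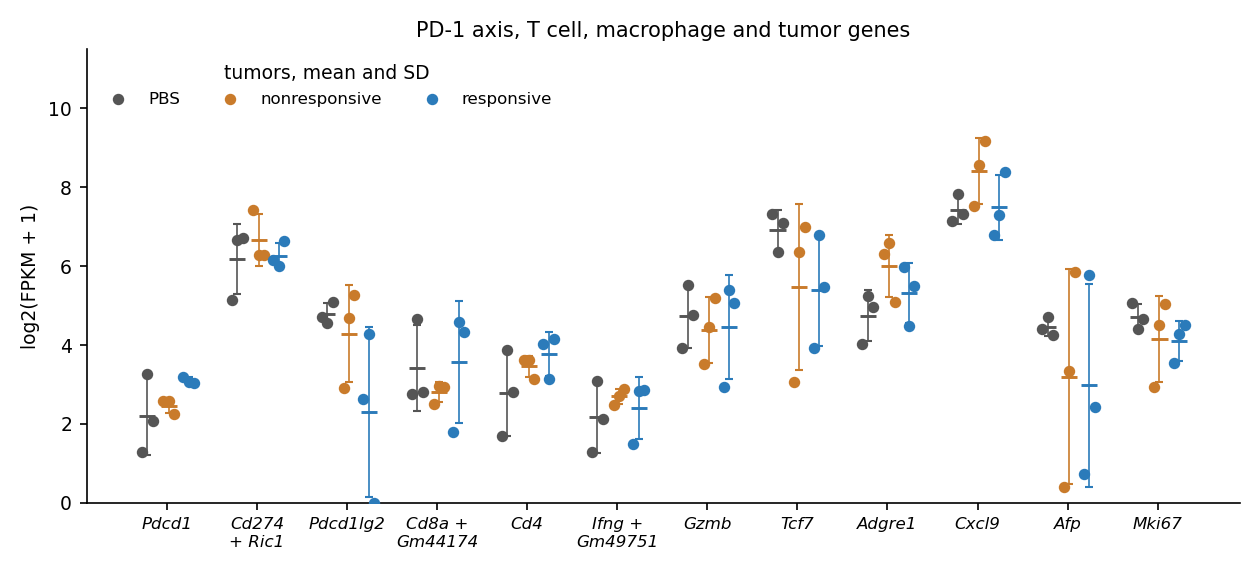
Level of 12 loci as log2(FPKM + 1) (vertical axis) in each PBS (dark grey), nonresponsive (orange) and responsive (blue) tumor, with the mean (short line) and SD (bar) of each group of 3. The groups overlap in all 12, and Pdcd1lg2 is listed at 0 in 1 responsive tumor.

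Interferon-stimulated genes gave different medians in the parts of the antibody arm. For the type I list the median was -0.53 for responsive minus PBS tumors and 0.063 for nonresponsive minus PBS tumors, a difference that was not tested. The list mean was 4.22 on the log2 scale in responsive tumor 1, below every other tumor. It was 4.93 and 4.89 in responsive tumors 2 and 3, inside the PBS range of 4.86 to 5.30. The nonresponsive tumors lay between 4.98 and 5.30. Of the type I interferon list 9 of 28 had a higher mean, where 44.0% of all loci did. The type I median was -0.16, or -0.26 without PBS tumor 1. Of the list of interferon-gamma induced GTPases and regulators none of 15 had an unadjusted p under 0.05, where 11.1% of all loci did. The median of this list was 0.05, or -0.18 without PBS tumor 1. Bst2, at the highest level of the type I list, was 322, 394 and 414 FPKM with PBS and 307, 404 and 621 FPKM (lowest, median, highest) with antibody. The single type I locus with an unadjusted p under 0.05, Stat2, is shared with Apof, a plasma apolipoprotein gene of the liver. MHC class I presentation genes had a median of 0.06, or -0.03 without PBS tumor 1.

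Inhibitory ligands other than PD-L1 differed among themselves. Besides Nectin2 with its listed zeros, the Fgl1 and Mtus1 locus was higher with an unadjusted p under 0.05, a log2 difference of 1.47 that was 0.78 and no longer past the threshold without PBS tumor 1. Fgl1 encodes a hepatocyte secreted ligand of LAG-3, and its locus was 33.0, 102 and 191 FPKM with PBS and 117, 275 and 406 FPKM (lowest, median, highest) with antibody. The arms overlapped in it. Vtcn1, which encodes B7-H4, was lower with an unadjusted p under 0.05 that was also lost without PBS tumor 1, at 2.01, 2.94 and 1.18 FPKM with PBS and 0.224, 0.368 and 1.51 FPKM with antibody. Lgals9, galectin-9, had a log2 difference of 0.32 ± 0.17. The median of the 10 tested ligands was -0.25, or -0.42 without PBS tumor 1, and 0.28 with an FPKM filter of 5, which leaves out low members.

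Genes of cell division were lower on average. None of the 22 DNA replication loci and none of the 26 mitosis loci had a higher mean with the antibody, where 44.0% of all loci did. No locus of either list had an unadjusted p under 0.05, where 4.82% of all loci were lower with one. The medians were -0.65 and -0.93, or -0.49 and -0.68 without PBS tumor 1, and the mitosis median was 0.054 with the mean of hepatocyte genes as a covariate. Cdk1, the kinase that starts mitosis, was 201, 92.2 and 166 FPKM with PBS and 15.4 (lowest), 72.8 (median) and 208 FPKM (highest) with antibody. Plk1, a mitotic kinase, was 35.8, 15.1 and 26.8 FPKM with PBS and 4.78, 14.1 and 38.7 FPKM with antibody. Mki67 was 32.5, 20.3 and 24.4 FPKM with PBS and 6.70, 19.9 and 31.7 FPKM with antibody. In these 3 genes the 2 lowest values belonged to nonresponsive tumor 1 and responsive tumor 1 and the highest antibody value to nonresponsive tumor 3. The mitosis list mean was 5.24, 4.25 and 4.92 in the PBS tumors, 2.51 and 2.78 in nonresponsive tumor 1 and responsive tumor 1, and 3.81 to 5.28 in the other 4 antibody tumors. Low levels were thus found in 1 large and 1 small treated tumor, not in 1 response group.

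Promoters of 2 of these genes are shown because mitotic loci were lower together, in the same window and build as above. Capitals mark TTTGAA, the common form of the cell cycle genes homology region, searched on both strands. It was found in 17 of 22 promoters of the mitosis list (77.3%), in 1 of 21 of the DNA replication list (4.76%) and in 17.9% of all promoters. The Cdk1 promoter is chr10:69352863-69353162 (minus strand) and the Plk1 promoter chr7:122159185-122159484 (plus strand).
Cdk1: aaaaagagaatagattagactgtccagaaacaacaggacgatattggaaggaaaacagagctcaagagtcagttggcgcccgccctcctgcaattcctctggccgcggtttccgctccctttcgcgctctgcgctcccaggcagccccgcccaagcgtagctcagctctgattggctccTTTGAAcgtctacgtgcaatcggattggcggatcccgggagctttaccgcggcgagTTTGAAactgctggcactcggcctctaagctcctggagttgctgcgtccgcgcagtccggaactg
Plk1: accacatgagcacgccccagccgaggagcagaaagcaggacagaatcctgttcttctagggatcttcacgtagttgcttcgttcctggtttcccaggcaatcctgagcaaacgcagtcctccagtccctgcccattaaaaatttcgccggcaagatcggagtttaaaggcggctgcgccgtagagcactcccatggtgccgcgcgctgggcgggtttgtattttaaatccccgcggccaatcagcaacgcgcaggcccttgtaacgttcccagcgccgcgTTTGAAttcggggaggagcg
As before, a match describes the letters only.

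Oncofetal and tumor cell genes had their lowest list means, 2.46 and 2.76, in the same 2 antibody tumors. Afp, the alpha-fetoprotein of fetal liver and hepatoma, was 20.4, 25.3 and 18.2 FPKM with PBS and 0.321 (lowest), 6.79 (median) and 56.5 FPKM (highest) with antibody, an exact permutation p of 0.405. The antibody values thus lay on both sides of a narrow PBS range. Tff2 and Tff3, trefoil factors, were 589, 251 and 324 FPKM as 1 locus with PBS and 3.47, 139 and 486 FPKM (lowest, median, highest) with antibody. Igf2bp3, an RNA-binding protein of fetal tissue, did not overlap, at 3.44, 2.33 and 2.90 FPKM with PBS and from a listed 0 to 2.00 FPKM with antibody. Golm1 was the other of the 18 oncofetal loci with an unadjusted p under 0.05, with a log2 difference of -0.64 ± 0.28, where 4.82% of all loci were lower with such a p. Neither locus had one without PBS tumor 1, when 1.06% of all loci were lower with one. The list median was -0.39, or -0.33 without PBS tumor 1 and -0.24 without nonresponsive tumor 1. Krt18 and Gpc3 had log2 differences of -1.001 ± 0.76 and -0.16 ± 0.44.

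Stroma and metabolism lists lay nearer to 0. Collagens and matrix had a median of 0.18, fibroblast, stellate and pericyte genes 0.36 and vascular endothelium 0.37, or -0.04, 0.13 and 0.17 without PBS tumor 1. An unadjusted p under 0.05 was found for 1 of 27, 2 of 18 and 1 of 18 loci, all higher, where 6.32% of all loci were higher with one. Cholesterol and fatty acid synthesis genes had a median of 0.34, or 0.29 without PBS tumor 1. With all tumors 5 of 25 were higher at an unadjusted p under 0.05, where 6.32% of all loci were. Without PBS tumor 1, 0 of 25 were, where 0.956% of all loci were. Hypoxia and glycolysis genes had a median of -0.25 with and without PBS tumor 1, with 4 of 22 higher. None of the 22 had an unadjusted p under 0.05, where 11.1% of all loci did.

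The responsive and the nonresponsive tumors of the antibody arm were set side by side against the same PBS tumors. The median of the hepatocyte plasma protein list was 2.74 for responsive minus PBS tumors and 1.52 for nonresponsive minus PBS tumors, and that of the P450 and conjugation list 2.73 and 1.25. General macrophage genes gave 0.57 and 0.87, B cell genes 1.46 and 0.27, and mitosis genes -1.16 and -0.68. These pairs share their PBS tumors, and responsive tumors were also tested directly against nonresponsive ones at each locus. For Uox the 2 log2 differences were 2.85 and 1.396, for Alb 2.76 and 1.43, for Imp4 -1.88 and -1.70, and for Gas6 1.43 and 1.498. Among the 153 loci examined singly, the smallest adjusted p in limma for responsive against nonresponsive tumors was 0.686, so no difference between them was detectable in any of them at 3 tumors a group.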

How the data were processed

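Total RNA of 9 Hepa1-6 liver tumors, 3 per group, was sequenced, and groups were taken from the sample labels. The authors deposited 1 Cufflinks table of FPKM per tumor, in which each value is already scaled to transcript length and library size. Their processing notes name Bowtie2 2.2.4 and TopHat2 2.1.1. The genome build could not be settled from the sources used here, so no coordinates of the files are printed. A series-wide Cuffdiff table, holding the authors' own group values, fold changes and p-values, was not used. Read depth cannot be had from FPKM, so the precision given is the spread between tumors. Entries without a gene name held from 19.2% (PBS tumor 3) to 81.5% (PBS tumor 1) of the summed FPKM and were left out. PBS tumor 1 also had the fewest named entries at an FPKM of 1 or more, 12533, against 12861 to 13328 in the other tumors.

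Entries of 1 gene or of overlapping genes were joined across tumors into 48261 loci, of which 7 with a failed estimate were left out and 2595 held several genes. In all, 13185 loci with an FPKM of 1 or more in at least 3 tumors were tested on log2(FPKM + 1), with a pseudocount of 1, by limma 3.58.1 (R 4.3.3, moderated two-sided test with trend, Benjamini-Hochberg adjustment, threshold 0.05). Most named loci share an adjusted p of 0.396. Single values were given an exact permutation test, two-sided, over 84 assignments of tumors. The mice were separate, 1 per tumor. In 20 simulated datasets of 6 against 3 tumors over 13185 loci, 200 loci were changed by 2 on the log2 scale. Of the changed loci, 93.5% had an unadjusted p under 0.05 and 72.7% an adjusted one. Of unchanged loci, 5.1% had an unadjusted p under 0.05. Each locus was drawn independently from a normal distribution, whereas in the real tumors the first principal component held 53.9% of the variance. These rates may therefore not hold for the real tumors.

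Named genes were the 10 largest increases and decreases without overlap and above 0 in every tumor, loci listed at 0 throughout 1 arm, in each list discussed the 2 members of highest mean FPKM and up to 4 of lowest p among those under 0.05, and 22 genes of the PD-1 axis, T cells, macrophages and the tumor. A few loci that met these rules are not reported here. The tumors compared and the gene lists were chosen with earlier results of these data known, and the arm of each tumor followed its treatment label alone. Alternatives were other scalings, filters, pseudocounts and tests, a hepatocyte covariate, responsive or nonresponsive tumors alone against PBS, and each tumor left out. Promoters came from RefSeq on GRCm38.p6. Python 3.11.15 with pandas 2.3.3, numpy 2.4.6, scipy 1.17.1 and matplotlib 3.10.9 was used.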

Additional observations from a re-analysis of the deposited data

Results flagged for a closer look

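Of 178 values checked for a tumor far from the other antibody tumors, 7 had a gap to the nearest tumor, divided by the range of the 6 and both taken on the log2(FPKM + 1) scale, above 0.625, where chance gives about 1 in 20. The Lag3 and Ptms locus was highest in responsive tumor 2, at 842 FPKM against 484 to 510 FPKM in the other 5 (gap over range 0.907). Nos2 was highest in nonresponsive tumor 1, at 205 FPKM against 25.3 to 48.1 FPKM (0.697). The Ifng and Gm49751 locus was lowest in responsive tumor 1, at 1.80 FPKM against 4.62 to 6.43 FPKM (0.713). The Spp1 and Gm42793 locus was lowest in nonresponsive tumor 1, at 211 FPKM against 437 to 616 FPKM (0.678). The mean of the interferon-gamma induced GTPases and regulators was lowest in responsive tumor 1, at 5.54 on the log2 scale against 6.53 to 6.87 (0.742). Skeletal muscle genes were highest in nonresponsive tumor 3 (0.879) and pancreatic acinar genes in nonresponsive tumor 2 (0.772).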

How the results depend on the processing

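Upper-quartile scaling and robust moderation left all 183 results classed as the same. For single loci this meant the same direction and side of the threshold. For list medians it meant a shift below the spread within groups, and for counts of loci a change within a set factor. The count of lower loci was 732 with upper-quartile scaling, against 636. The median of the immediate early and heat shock list changed sign, from -0.024 to 0.0071 with upper-quartile scaling. Against 833 higher loci with an unadjusted p under 0.05, 490 were counted by an ordinary Student test, 442 with the replicate block, 212 with nonresponsive tumors alone and 92 with the mean of hepatocyte genes as a covariate. Against 636 lower ones, 1153 were counted with no filter, 1280 with responsive tumors alone, 213 with nonresponsive tumors alone and 107 with the covariate. Leaving out 1 tumor gave 126 to 1344 higher and 140 to 1842 lower loci. The count at an adjusted p under 0.05 was 3 in a 3-group fit, 6 with no filter, 5 with nonresponsive and 19 with responsive tumors alone, 1 to 5 with 1 tumor left out, and 0 in limma over loci above 0 in all 9 tumors, of which 1439 had an unadjusted p under 0.05. Loci without overlap numbered 82 higher at an FPKM filter of 5, 200 higher and 413 lower with no filter, 440 and 632 for nonresponsive tumors, 1533 and 2190 for responsive tumors, and 147 to 709 and 259 to 996 with 1 tumor left out. The replicate numbers did not pair the tumors, with correlations of same-numbered deviations from -0.50 to 0.64, and the replicate block left 20 results no longer past the threshold.

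With the hepatocyte covariate the log2 difference changed sign for Hp (-0.22), Cyp2e1 (-0.13), the Gstp locus (-0.13), Arg1 (-0.47), the Glul locus (-0.10), C3 (-0.012), Clu (-0.39), the Saa locus (-0.43), the Fga locus (-0.021), Itih4 (-0.029), the Hpx locus (-0.046), Fabp1 (-0.26), the Apoa2 locus (-0.084), the Fcgr2b locus (-0.19), Clec4f (-0.056), the Apoe locus (-0.054), the Fcer1g locus (-0.12), the S100a8 locus (-0.28), S100a9 (-1.44), Zbp1 (0.16), the Birc5 locus (0.014), the Mcm6 locus (0.0296), Pcna (0.018), Pdcd1 (-0.19), the Cd274 locus (-0.43), Cd4 (-0.043), Cd80 (-0.91), the Cd86 locus (-0.066), the Itgam locus (-0.023), Tnf (-1.28), Afp (0.065), Il10 (-0.15), Nos2 (-0.66) and Mki67 (0.058). With nonresponsive tumors alone the Lag3 locus was at -0.037 and Zbp1 at 0.028, and with responsive tumors alone the Cd8a locus was at 0.15, the Itgam locus at -0.047 and the Cxcl10 locus at -0.14. With 1 tumor left out, ranges that crossed 0 included -0.068 to 1.09 for Arg1, -0.033 to 0.30 for the S100a8 locus, -0.45 to 1.44 for S100a9, -0.048 to 0.24 for the Lag3 locus, -0.39 to 0.024 for the Cd27 locus, -0.23 to 0.55 for the Cd274 locus, -0.55 to 0.40 for the Cd8a locus, -0.072 to 0.83 for the Ifng locus, -0.72 to 0.085 for Gzmb, -0.13 to 1.66 for Cd80, -0.38 to 1.14 for Tnf, -0.21 to 0.26 for the Cxcl10 locus, -0.27 to 1.28 for Nos2, -0.54 to 0.016 for Cd226, -0.055 to 0.47 for Cd96 and -0.35 to 0.023 for Gpc3. The covariate also turned the median of 21 of the 40 lists with 10 or more loci, among them B cell (-0.54), immunoglobulin (-0.62), neutrophil (-0.52), M1-like macrophage (-0.66) and mitosis (0.054). It was built from hepatocyte genes, so the hepatocyte plasma protein list lies near 0 by construction. For the other sign changes the cause was not tested.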

Other observations

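Smaller lists outside the comparisons above gave these values. The 4 erythroid loci were all higher with the antibody, with a median log2 difference of 1.15, or 0.87 without PBS tumor 1. An unadjusted p under 0.05 was found for 1 of the 4, where 6.32% of all loci were higher with one. The 5 adipocyte loci were all higher, with a median of 0.92, or 0.58. The 10 cholangiocyte and epithelial loci had a median of -0.39, and the list mean was lowest in nonresponsive tumor 1, at 3.18, against 4.004 to 5.21 in the other 8 tumors. Among 40 lists with 10 or more loci, the median was above 0 in 31, and in 21 without PBS tumor 1.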
